A study of Mus musculus with 2 samples.

Results

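The genes described here are 6 tissue-specific antigens (TSAs) that are commonly used as readouts of Aire in the thymic medulla, Csn2, Csn1s1, Ins2, Spt1, Tff3 and Muc6. They were taken by symbol from the 32285 genes listed in the count tables, and Spt1, which is not a listed symbol, was followed as Mucl2, the symbol that RefSeq pairs with that synonym. Levels were read in 8303 thymic epithelial cells (TECs), of which 3520 held at least 1 unique molecular identifier (UMI, 1 counted RNA molecule) of any of the 6 genes. The data hold no Aire-deficient sample, so dependence on Aire was not tested, and the genes are described by the Aire level of the cells that carry them.

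AIRE is a nuclear protein of medullary TECs (mTECs) that raises the transcription of many genes otherwise restricted to peripheral tissues. Developing T cells that recognize such antigens in the medulla are deleted or diverted into the regulatory lineage. Many TSAs are each made by a small fraction of mTECs at a time, so that the repertoire is spread over the population as a mosaic. mTECs that have passed the Aire stage can take on features of peripheral cell types.

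TECs (EpCAM+ CD45- TER119- cells by the methods of the study) of C57BL/6 mice were measured by droplet scRNA-seq at day 15 after a sublethal dose of γ-rays and in age-matched controls, as 1 library per condition, each from a pool of 3 mice. The labels give an age of 9 weeks, and their protocol text gives 4 weeks. The condition of each library is in conflict within the sources: the library with 3233 kept cells is labelled radiation, whereas its files are tagged as control and its cell number is the one stated in the paper for control mice, and the library with 5070 kept cells is labelled control, whereas its files are tagged as irradiated and its cell number is the one stated for irradiated mice. They are therefore called the smaller and the larger library, and ratios are given as larger over smaller. With 1 library per condition no test between conditions was possible. Intervals are exact 95% intervals (Poisson for UMI sums, Clopper-Pearson for shares of cells) and cover counting error only. A few cells hold much of the UMIs of most of these genes. Values without the cells with most UMIs are therefore given for the ratios between libraries. Elsewhere they are given where they move a printed level or ratio by over 1.5 times. They were not computed for the levels by Aire class, for the lists of related tissue genes, for H19 and Krt10, or for ratios of neighbouring genes within a library.

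The median depth was 13412 UMIs per cell in the smaller library and 13003.5 in the larger, with ranges of 4132 to 58293 and 3810 to 55160. Shares of cells were compared after each cell was thinned at random to 4000 UMIs, which left out 0 and 5 cells. Kept cells of the 2 libraries shared 5 barcodes. Clusters C0 to C13 were made after the 6 genes had been removed from the clustered features, so that none of them defines a cluster. The cTEC-like cluster C8, led by Psmb11 and Prss16, has a median depth of 14207 UMIs and serves as the background for RNA that is free in the droplets. Aire was highest in C4 (13.4 UMIs per 10000), which has Hdc among its leading genes, followed by C3 (9.00), which S100a8 and S100a9 lead, the proliferating TA-mTEC-like C7 (5.70) and C2 (4.82), in which Muc13, Lypd8 and Ccl9 are among the leading genes. A name needed at least 2 markers of 1 list, and none of another, among the 10 leading genes. C2 had markers of 2 lists, C3 none and C4 Hdc alone, so these were left unnamed.

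The 2 caseins among the 6 genes lie beside each other on chromosome 5 of GRCm38, with Csn1s1 on the plus strand at chr5:87666208-87682578 and Csn2 on the minus strand at chr5:87692624-87699630, their 3′ ends 10046 bases apart. The upstream bases of 4 of the 6 genes, the caseins, Spt1 and Muc6, were in the RefSeq table used (GRCm38.p6) and are shown. Each sequence is the 250 bases before the RefSeq start of the gene, 5′ to 3′ on its own strand. The RefSeq start is that of the annotated gene for Csn1s1 and Spt1, lies 205 bases inside the annotated gene for Csn2 and 74 bases before it for Muc6. In the sequences capitals mark the motif TTCNNNGAA, the palindromic form bound by STAT proteins, searched on both strands together with TATAAA.
Csn2, minus strand, chr5:87699426-87699675: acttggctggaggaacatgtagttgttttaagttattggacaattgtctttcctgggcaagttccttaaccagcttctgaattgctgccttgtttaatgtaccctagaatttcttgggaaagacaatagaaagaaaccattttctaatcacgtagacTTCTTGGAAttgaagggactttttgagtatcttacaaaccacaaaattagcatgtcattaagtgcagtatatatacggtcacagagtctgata
Csn1s1, plus strand, chr5:87665958-87666207: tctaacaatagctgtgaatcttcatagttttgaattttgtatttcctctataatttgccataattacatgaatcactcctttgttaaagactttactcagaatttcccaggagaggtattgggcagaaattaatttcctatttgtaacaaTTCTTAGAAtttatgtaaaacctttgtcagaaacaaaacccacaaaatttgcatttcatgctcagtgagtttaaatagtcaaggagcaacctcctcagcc
Spt1 (Mucl2), minus strand, chr15:103899313-103899562: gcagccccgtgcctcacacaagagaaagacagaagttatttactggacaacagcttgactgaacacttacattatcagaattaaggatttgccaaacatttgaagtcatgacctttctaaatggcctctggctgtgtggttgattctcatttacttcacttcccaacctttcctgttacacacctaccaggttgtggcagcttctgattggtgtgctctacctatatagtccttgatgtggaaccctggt
Muc6, minus strand, chr7:141655394-141655643: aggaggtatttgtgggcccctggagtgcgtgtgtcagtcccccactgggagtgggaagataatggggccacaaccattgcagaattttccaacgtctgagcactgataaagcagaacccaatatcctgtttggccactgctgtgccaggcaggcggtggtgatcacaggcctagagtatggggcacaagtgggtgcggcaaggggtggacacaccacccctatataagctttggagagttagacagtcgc
The motif is at bases -93 to -85 of Csn2 (TTCTTGGAA) and at -100 to -92 of Csn1s1 (TTCTTAGAA), counted back from the RefSeq start. It is not in the windows of Spt1 and Muc6, and 7.02% of all 32851 promoter windows hold it. TATAAA is in none of the 4 windows and in 12.4% of all windows. These are matches of letters and describe no binding. The upstream bases of caseins and Muc6 contain 36.8% (Csn2), 32.8% (Csn1s1) and 55.2% (Muc6) G or C, and those of Spt1 44%.

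Csn2, the β-casein of milk, was by far the most abundant of the 6 genes. It held 31514 UMIs in the smaller library, or 6.11 per 10000 UMIs (6.04 to 6.18), and 45099 in the larger, or 5.97 (5.92 to 6.03). A UMI was found in 1338 of 3233 cells (41.4%) and in 2041 of 5070 (40.3%), and after thinning in 31.7% and 30.6%. Its level was thus of the order of that of Aire itself, which stood at 4.40 and 4.54 UMIs per 10000. The cells with most held 315 UMIs in the smaller library and 236 in the larger, and the median cell with any held 10 and 9.

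Csn1s1, the αs1-casein, was found in far fewer cells than its neighbour. It had 640 UMIs in 83 cells of the smaller library (0.124 per 10000) and 398 UMIs in 76 cells of the larger (0.0527). The single highest cell held 155 UMIs, or 24.2% of all Csn1s1 in the smaller library, and 68, or 17.1%, in the larger. The 10 highest cells held 59.4% and 63.8% of its UMIs, whereas 36 and 37 of the positive cells held 1 UMI each.

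Ins2, one of the insulin genes and the one best known in the thymus, lies on the minus strand of chromosome 7 (chr7:142678656-142743381 in the annotation). It had 511 UMIs in 68 cells of the smaller library (0.0991 per 10000) and 553 in 60 cells of the larger (0.0732). The highest cells held 80 and 103 UMIs, and the 10 highest held 65.6% and 63.8% of all its UMIs. Insulin message was thus carried by about 1 to 2 cells in 100, with 2.10% and 1.18% positive before thinning and 1.27% and 0.770% after it.

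Spt1, which codes for a salivary protein and lies on the minus strand of chromosome 15 (chr15:103895855-103899312), followed Csn2 in abundance. It had 3510 UMIs in 154 cells of the smaller library (0.680 per 10000) and 3441 in 199 cells of the larger (0.456). The highest cells held 263 and 311 UMIs, close to the highest for Csn2, although Csn2 was found in many more cells. Cells with at least 10 UMIs numbered 62 and 64 and held 94.0% and 90.4% of all Spt1 UMIs.

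The mucus genes were found at few molecules in most of their cells, as were Csn1s1, Ins2 and Spt1. In cells with any, the median over both libraries was 2 UMIs for Tff3 and 1 for Muc6. It was 2 for Csn1s1 and 3 for Ins2 and for Spt1. Tff3, a trefoil peptide that goblet cells secrete with mucin (chromosome 17, chr17:31125306-31129646, minus strand), had 770 UMIs in 137 cells of the smaller library (0.149 per 10000) and 747 in 194 cells of the larger (0.0989). Its highest cells held 140 and 35 UMIs, so 1 cell of the smaller library held 18.2% of its Tff3. Muc6, the gel-forming mucin of the gastric glands (chr7:141633456-141655319, minus strand, 1023 kb from Ins2), had 23 UMIs in 15 cells and 51 in 10 cells, with highest cells of 4 and 15. At this depth little can be said of Muc6 beyond where its few cells lie.

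**Figure D1:**
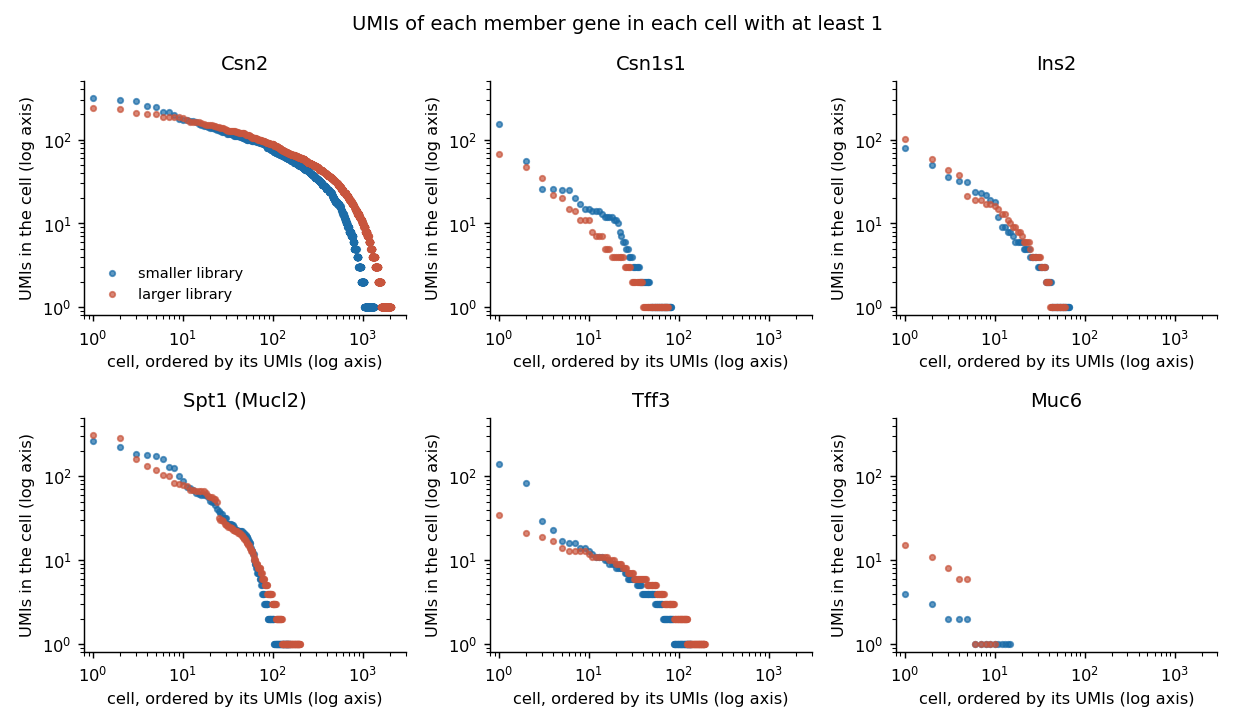
Each point is a cell with at least 1 UMI of the gene. The x axis (log) orders the cells of each library by their UMIs and the y axis (log) gives those UMIs. Csn2 reaches 1338 and 2041 cells with a highest value of 315, while Ins2 reaches 68 and 60 cells with a highest value of 103, so that the scarce genes differ from Csn2 more in how many cells hold them than in how much the highest cells hold.

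The spread of these genes over cells was wide. The Fano factor (variance over mean of UMIs per cell) in the smaller library was 64.4 for Csn2, 51.4 for Csn1s1, 29.9 for Ins2, 102 for Spt1, 40.6 for Tff3 and 2.04 for Muc6, and in the larger 56.4, 25.7, 37.8, 101, 8.50 and 9.54. In the smaller library the values of the first 5 of these genes lay above those of 95.6% (Csn2), 98.99% (Csn1s1), 97.3% (Ins2), 99.6% (Spt1) and 98.4% (Tff3) of the genes with 0.5 to 2 times their UMIs, and that of Muc6 above 53.8%. In the larger library the shares were 96.0% (Csn2), 97.1% (Csn1s1), 98.6% (Ins2), 99.6% (Spt1), 92.3% (Tff3) and 93.8% (Muc6). Within C3 alone the Fano factor was 38.1 and 35.9 for Csn2, 59.7 and 30.8 for Csn1s1, 19.2 and 45.0 for Ins2, 128 and 136 for Spt1, 8.15 and 7.45 for Tff3, and 2.33 and 7.59 for Muc6 (smaller and larger library). Beside genes with 0.5 to 2 times their UMIs in C3, Csn2 lay above 87.2% and 88.5% and Tff3 above 87.3% and 89.2%. Muc6 lay above 56.8% and 91.1%. Csn1s1 (98.4% and 97.9%), Ins2 (95.6% and 98.8%) and Spt1 (98.0% and 99.8%) lay higher.

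Along the Aire level of the cells, the share of cells with Csn2 was higher at every step in both libraries. After thinning, cells with 0, 1, 2 to 3, 4 to 7 and 8 or more Aire UMIs held Csn2 in 14.4%, 52.8%, 63.5%, 74.6% and 80.5% of cells of the smaller library and in 13.0%, 46.5%, 59.3%, 69.3% and 74.7% of the larger. The 95% intervals of the lowest class (12.9% to 15.9%, and 11.8% to 14.2%) do not reach those of any other. The cTEC-like cells held Csn2 in 5.92% and 4.27% after thinning, so the class without an Aire UMI as a whole lay above the background. Before thinning, however, 14.2% and 15.6% of the cells of that class held Aire. Over both libraries 729 cells of that class held Csn2, of which 285 lay in C2, 120 in C3 and 19 in C4. The level rose less over the classes with Aire, from 8.59 to 14.6 UMIs per 10000 in the smaller library and from 8.30 to 14.7 in the larger.

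The scarce genes were also found more often in cells with Aire, with no further increase that exceeded the counting error above 1 Aire UMI. Ins2 was found in 0.602% of cells without an Aire UMI and 3.25% (1.06% to 7.41%) of cells with 8 or more in the smaller library, and in 0.248% and 2.33% (0.861% to 5.01%) in the larger. Spt1 went from 1.76% to 4.55% and from 1.21% to 4.67%. Csn1s1 was most frequent at 2 to 3 Aire UMIs in the smaller library (4.91%, 2.71% to 8.10%) and was at 1.95% in the highest class of each library. The intervals of neighbouring classes above 0 overlap for each of these 3 genes.

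Tff3 went from 1.11% in cells without an Aire UMI to between 3.17% and 5.26% in the other classes of the smaller library, and from 0.681% to between 3.59% and 6.23% in the larger. Its highest class in the larger library (3.60% to 9.91%) lay above its lowest (0.427% to 1.03%). Muc6 was found in at most 0.702% of any class and is too scarce for an order.

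**Figure D2:**
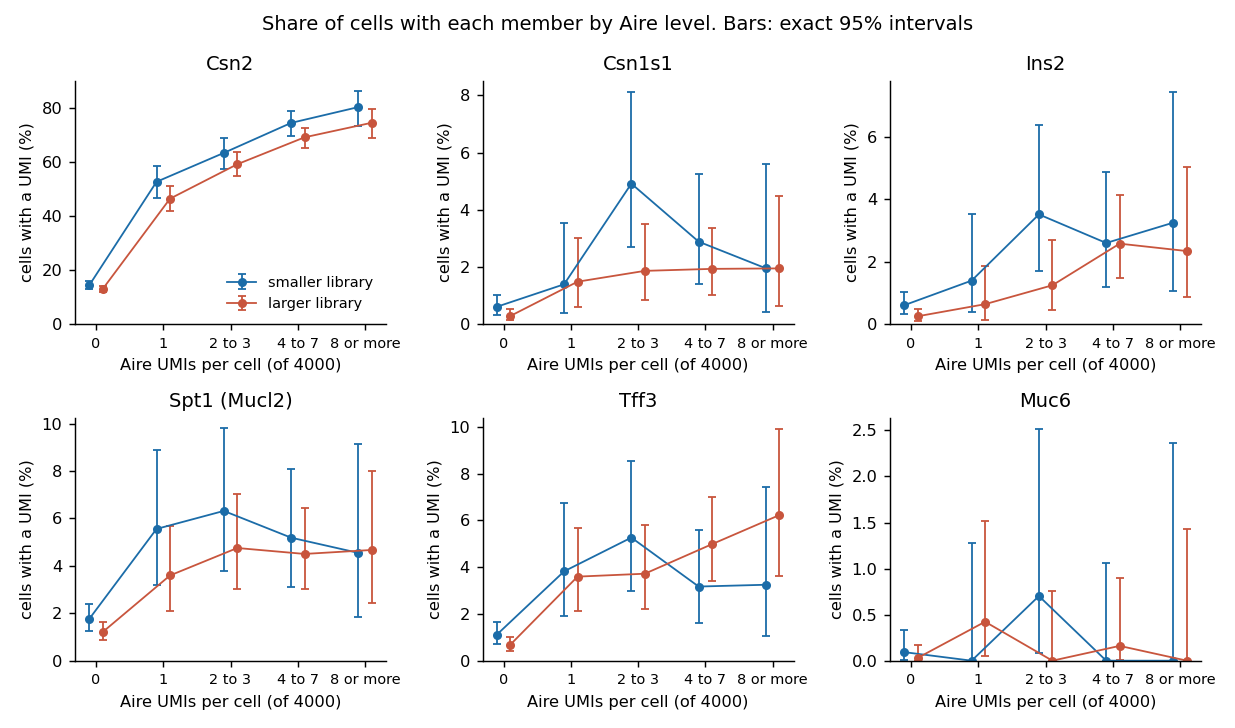
The y axis gives the percentage of cells with at least 1 UMI of the gene and the x axis the Aire UMIs of the cell, both after thinning to 4000 UMIs. Points are libraries and bars are exact 95% intervals. Csn2 climbs from 14.4% and 13.0% to 80.5% and 74.7%, while the other genes stay under 7% in every class.

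Summed over cells, the level in Aire-high cells (2 or more Aire UMIs after thinning) over that in Aire-zero cells was 5.28-fold for Csn2 in the smaller library (20187 against 6724 UMIs) and 6.14-fold in the larger (30305 against 8200). It was 8.55-fold and 6.68-fold for Csn1s1, 9.67-fold and 13.5-fold for Ins2, and 4.12-fold and 5.51-fold for Spt1. Tff3 was 1.97-fold higher in the smaller library (log2 0.98, 0.60 to 1.36) and 3.72-fold in the larger. For Muc6 the 2 libraries pointed in opposite directions, with 18 against 5 UMIs and 8 against 19, and the range in the larger library includes no difference (log2 -0.47, -2.20 to 1.18). More than 2-fold higher in each library were thus 4 of the 6 genes (Csn2, Csn1s1, Ins2 and Spt1), beside 21.1% of the 18788 genes with at least 50 UMIs, and the median log2 ratio was 2.37 over the 6 and -0.03 over all of them. As a description of these libraries, Csn2, Csn1s1, Ins2 and Spt1 were higher in Aire-high than in Aire-zero cells of each library, Tff3 too by a smaller ratio, and Muc6 gave no direction. Csn2 was also higher at 8 or more Aire UMIs than at 1 in each library. Ins2 was too, but without a steady rise. Over the classes with Aire it stood at 0.101, 0.236, 0.0868 and 0.572 UMIs per 10000 in the smaller library. In the larger it stood at 0.0491, 0.169, 0.197 and 0.162. The highest class held Ins2 in 6 cells of each library. Csn1s1 in the smaller library went from 0.456 UMIs per 10000 at 2 to 3 Aire UMIs to 0.0520 (0.0297 to 0.0844) at 8 or more. The 2 to 3 class held 282 Csn1s1 UMIs in 21 cells and the highest class 16 in 5. A single cell of that library held 155 Csn1s1 UMIs, and these levels were not computed without it. Csn1s1 stood at 0.0336 (0.0273 to 0.0409) in cells of that library without an Aire UMI. Spt1 went from 1.08 at 1 Aire UMI to 0.424 at 8 or more in the larger library, and from 1.23 to 1.28 in the smaller.

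The highest levels, however, were not in the cluster with most Aire. Over both libraries C2, C3 and C4 together held 94.8% of the Csn2 UMIs, 93.8% of Csn1s1, 97.0% of Ins2, 92.2% of Spt1, 91.7% of Tff3 and 94.6% of Muc6, with 32.4% of the cells and 36.6% of all UMIs. Over both libraries C3 was highest for each of the 6 genes among the clusters with at least 50 cells. Csn2 stood at 24.1 UMIs per 10000 in C3, 15.5 in C2 and 7.99 in C4, with 97.8%, 88.1% and 81.9% of cells positive and 94.2%, 77.3% and 63.3% after thinning, against 0.135 UMIs per 10000 and 4.77% of thinned cells in the cTEC-like C8.

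Csn1s1 was the gene most concentrated in C3. It stood at 0.535 UMIs per 10000 there, 0.0348 in C2 and 0.0548 in C4, and 17 of its 20 highest cells lay in C3. Spt1 stood at 2.64, 1.08 and 0.467 UMIs per 10000 in C3, C2 and C4. Tff3 stood at 0.437, 0.398 and 0.0944, with C3 and C2 within counting error of each other (log2 of C3 over C2 0.14, -0.09 to 0.37), or at 0.50 without the highest cell of each, since 1 cell of C2 held 140 UMIs, and was found in 18.8%, 7.61% and 5.35% of their cells. Ins2 stood at 0.352, 0.190 and 0.129 over both libraries (0.0827 in C4 without its highest cell). In the smaller library C2 (0.265), C3 (0.232) and C4 (0.217) lay close together. Without the highest cell of each cluster they stood at 0.192, 0.177 and 0.107, so 1 cell set the level of C4. Ins2 was higher in C3 than in C2 only in the larger library (0.441 and 0.116). Muc6 had 50 UMIs in C3, 17 in C2 and 3 in C4, so its ratios rest on few molecules.

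C3 over C4 was 2.66-fold and 3.31-fold for Csn2 in the smaller and larger library, 10.1-fold and 9.02-fold for Csn1s1, 5.11-fold and 6.36-fold for Spt1, and 4.66-fold and 4.57-fold for Tff3. For Ins2 it was 1.07-fold in the smaller library, with a log2 range of -0.37 to 0.56, and 6.77-fold in the larger. Without the highest cell of each cluster the log2 ratio of Ins2 was 0.72 in the smaller library and 3.98 in the larger, beside 0.10 and 2.76 with them, so single cells set its size. For Muc6 it rests on 16 against 2 UMIs and 34 against 1, with log2 ratios of 2.86 and 4.67 that became 4.79 and 5.70 without the highest cells. In the same contrast Aire went the other way, with log2 ratios of -0.73 and -0.47. More than 2-fold higher in C3 than in C4 in each library were 5 of the 6 genes, all but Ins2, beside 20.7% of all 18788 genes, and the median log2 ratio over both libraries was 2.35 for the 6 genes and 0.31 for all.

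Outside these clusters the 6 genes were mostly found at lower levels, except for some of them in the small clusters C12 and C13. Csn2 stood at 1.12 UMIs per 10000 in C7 and 1.67 in C10, in 18.0% and 24.7% of thinned cells, against 4.77% in C8. C7 had more Aire than C2 (5.70 and 4.82 UMIs per 10000) but less Csn2 (1.12 and 15.5). The ciliated-like C13 (20 cells) held Csn2 at 5.84 UMIs per 10000 (3.85 without its highest cell). Csn2 was found in 16 of the 20 cells, and in 12 after thinning. Spt1 stood at 2.55 in C13 (1.03 without its highest cell), and 69 of its 116 UMIs there came from 1 cell. Aire was held by 75.0% of the C13 cells. The tuft-like C9, the thymic counterpart of intestinal tuft cells, held Csn1s1 in 6.35% of 299 cells, 29 UMIs with at most 6 in a cell, against 0.398% of the cTEC-like cells (3 UMIs). The Csn1s1 level of C9 was 0.0721 UMIs per 10000 (0.0483 to 0.104), beside 0.0348 in C2 and 0.0548 in C4. The neuroendocrine-like C12 (42 cells) held 28 Tff3 UMIs, all in the smaller library, and 3 of Ins2.

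**Figure D3:**
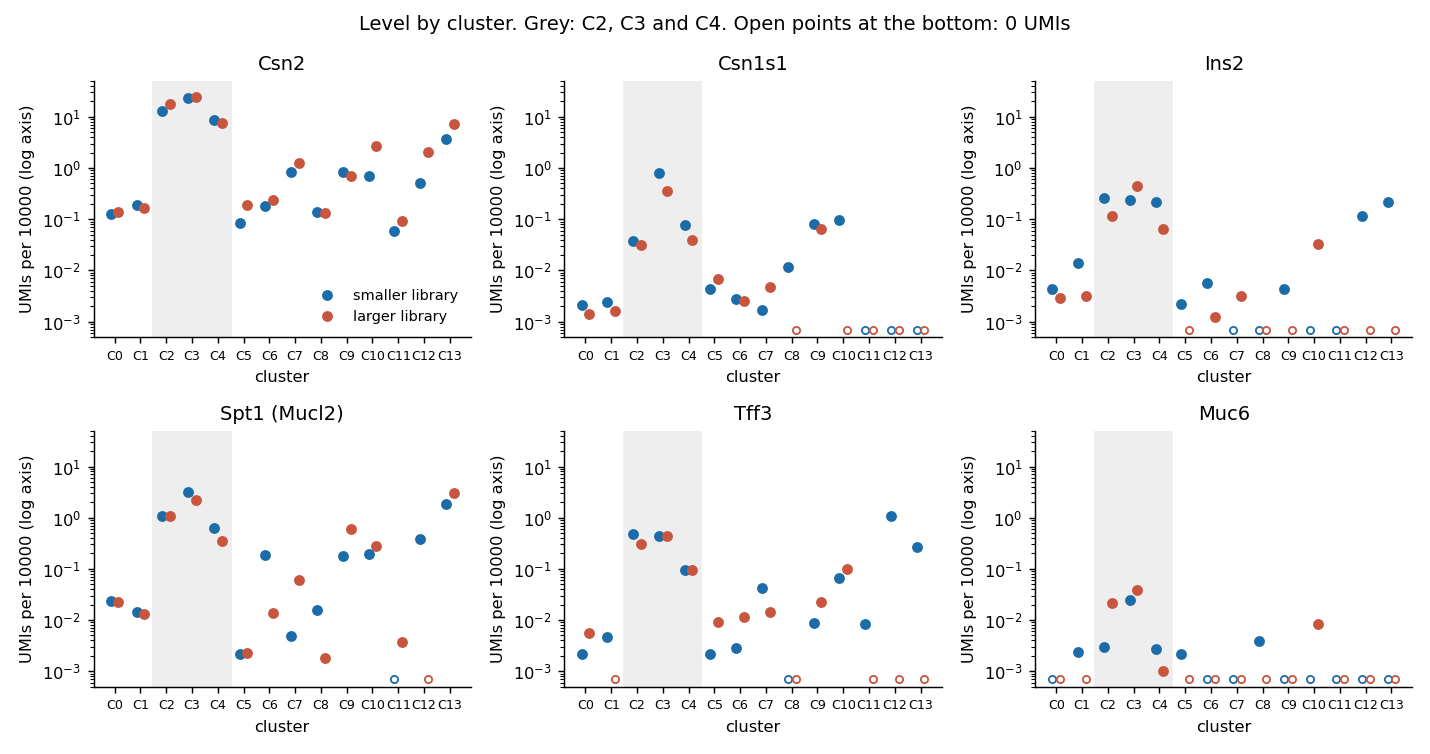
The y axis (log) gives UMIs per 10000 and the x axis the cluster, with a point for each library. Grey marks C2, C3 and C4, and open points at the bottom are clusters without a UMI. The grey clusters hold 91.7% to 97.0% of the UMIs of each gene, and the small clusters C12 and C13 (42 and 20 cells) reach similar levels for some genes.

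Within a cluster the members followed the Aire level only in part. In C3 the Csn2 level was 20.2 UMIs per 10000 in the 132 cells without an Aire UMI after thinning, 24.8 in the 374 cells with 1 to 3 and 24.7 in the 409 cells with 4 or more. It was thus higher in C3 cells without a thinned Aire UMI than in the 578 C4 cells with 4 or more, which stood at 8.38 (8.22 to 8.55). Part of these C3 cells had lost Aire only by thinning. Before it, Aire was found in 93.8% and 95.4% of C3 cells in the smaller and larger library, and after it in 83.1% and 87.1%. In C2 Csn2 went from 13.4 to 18.2 UMIs per 10000 and from 67.7% to 88.8% of cells between the lowest and highest class, and in C4 from 4.20 to 8.38.

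For the scarce genes the Aire level of C3 cells with and without them was compared. The Aire level was 8.92 UMIs per 10000 in the 83 C3 cells positive for Csn1s1 and 9.01 in the 832 negative ones, 9.29 and 8.98 for Ins2 (49 positive cells), 7.86 and 9.17 for Spt1 (122 cells), and 8.22 and 9.19 for Tff3 (172 cells). For Spt1 it was 6.52 and 8.68 in the smaller library and 9.25 and 9.51 in the larger, and for Tff3 7.93 and 8.46, and 8.48 and 9.72. C3 cells with Spt1 or Tff3 had lower Aire values than the other C3 cells in each library, by the least for Spt1 in the larger. For Csn1s1 the libraries differed in direction (8.65 and 8.28, and 9.36 and 9.49). The median depth was 15775 and 16175 for Spt1 and 17038.5 and 15843 for Tff3, 17139 and 15997 for Csn1s1 and 16763 and 16049.5 for Ins2. In C4 of the smaller library Aire was higher in cells with Spt1 (14.5 and 13.8) or Tff3 (14.6 and 13.7) than in those without. In C4 of the larger it was lower (12.6 and 13.2 for Spt1, 13.0 and 13.2 for Tff3).

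Few cells held several of the 5 genes other than Csn2. After thinning, 4.26% of the 915 C3 cells held neither Csn2 nor any of these 5 genes. With Csn2 counted among the genes, 71.5% of the C3 cells held 1, 21.1% held 2 and 3.17% held 3 or more. With Csn2 set aside, 74.3% held none of the other 5 genes, 22.4% held 1, 3.17% held 2 and 1 cell held 3. In C4 the same 5 genes were absent from 93.7% of 841 cells. Most mTECs thus held none or 1 of the scarce antigens at this depth, while Csn2 was nearly universal in C3.

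Pairs of the genes were counted in C2, C3 and C4. Csn2 was found in 69 of the 71 cells with Csn1s1 after thinning (97.2%) and in 78.2% of the cells without it, and conversely Csn1s1 in 3.26% of the cells with Csn2 and in 0.348% of those without. Tff3 was found in 12 of 71 Csn1s1-positive cells (16.9%) and in 5.35% of negative ones. Spt1 was found in 10 of 72 Ins2-positive cells (13.9%) and in 6.19% of negative ones, and Ins2 in 5 of 71 Csn1s1-positive cells (7.04%) and in 2.56% of negative ones. Ins2 and Tff3 shared 4 cells, 5.56% of the Ins2-positive cells against 5.66% of the negative ones, but without thinning these were 17.1% and 10.4%. These shares are taken over the 3 clusters together, in which C3 has more of each gene.

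Some of the genes beside the members on the chromosome were found in the same cells more often than in other cells. For each member the UMIs of its neighbours in member-positive cells were set against those expected from the negative cells of the same clusters. Of 41 neighbours with at least 50 UMIs around the 5 genes other than Csn2, the interval of the ratio lay above 1 for 20, below 1 for 2 and included 1 for 19. These intervals cover counting error only, and the share of all genes with an interval above 1 was not computed. The count of 20 therefore does not show that neighbours differ from other genes. Leaving out the positive cell with most UMIs of the neighbour was an alternative chosen after seeing the data. In the 128 cells with Ins2, Igf2, the imprinted growth factor gene 11840 bases away, had 389 UMIs where 29.5 were expected (13.2-fold, 11.9 to 14.6), in 49 of the cells. The ratio was 12.0 in the smaller and 15.5 in the larger library, and 11.7 without the cell with most Igf2. The tyrosine hydroxylase gene Th, 149371 bases away on the other side of Ins2, had 15 UMIs against 20.5 expected, in 3 cells. Its ratio was 0.730, or 0.247 without the cell with most Th. On the same side, Tspan32 (261665 bases) was at 3.57-fold, or 1.83-fold without the cell with most. By library Tspan32 was at 0.264-fold (smaller) and 7.43-fold (larger). Trpm5 (325772 bases) was also on that side, at 0.404-fold, or 0.259-fold without the cell with most. On the side of Igf2, Tnnt3 (162647 bases) was at 5.08-fold, or 3.24-fold without the cell with most.

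In the 353 cells with Spt1, Mucl1, a mucin-like secreted protein gene 140386 bases away, had 1427 UMIs where 231 were expected (6.17-fold, 5.86 to 6.50), or 5.20-fold without the cell with most, in 74 cells. In the 25 cells with Muc6, Muc2, the main intestinal gel-forming mucin, 35021 bases away, had 171 UMIs where 6.41 were expected, 26.7-fold or 15.0-fold without the cell with most, in 10 of the cells. Ap2a2, an adaptor protein gene 445 bases from Muc6 on its other side, had 12 UMIs where 7.96 were expected, with an interval of the ratio from 0.779 to 2.63.

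The ratios of the trefoil genes were lower than those of Igf2, Mucl1 and Muc2. In the 331 cells with Tff3, Tff2 (11403 bases away) had 902 UMIs where 321 were expected, 2.81-fold, and Tff1 (31749 bases away) had 863 where 355 were expected, 2.43-fold. Both ratios were above 2 in each library and without the cell with most. Abcg1, a lipid transporter gene 7318 bases away on the other side, had 371 UMIs where 375 were expected.

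In the casein locus, the 159 cells with Csn1s1 held 1.90 times the expected Csn2 (8535 UMIs, 1.86 to 1.94), which was 1.83-fold and 2.05-fold in the smaller and larger library. Csn1s2a, another casein 91989 bases away, was at 5.62-fold (674 UMIs where 120 were expected). The sulfotransferase genes Sult1e1 (74614 bases) and Sult1d1 (97181 bases), on the other side of Csn1s1, were at 5.23-fold and 6.77-fold. In the smaller and larger library Sult1e1 was at 7.25-fold and 4.84-fold, and Sult1d1 at 2.85-fold and 13.5-fold. Without the cell with most UMIs of the neighbour, Sult1e1 was at 4.42-fold and Sult1d1 at 4.76-fold. Csn1s2b, 125504 bases away, was at 0.666-fold with a range of 0.344 to 1.16. A cell without Csn1s1 held 127 of its 289 UMIs, and the ratio was not computed without that cell. By share of cells the direction was the opposite. Before thinning, Csn1s2b was in 5.79% of the Csn1s1-positive cells of C2, C3 and C4 and in 2.69% of the negative ones. The ratio thus gives no direction for Csn1s2b. No such ratio is given for Csn2, since 2406 of the 2689 cells of C2, C3 and C4 held it and the few negative cells set the expected values.

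**Figure D4:**
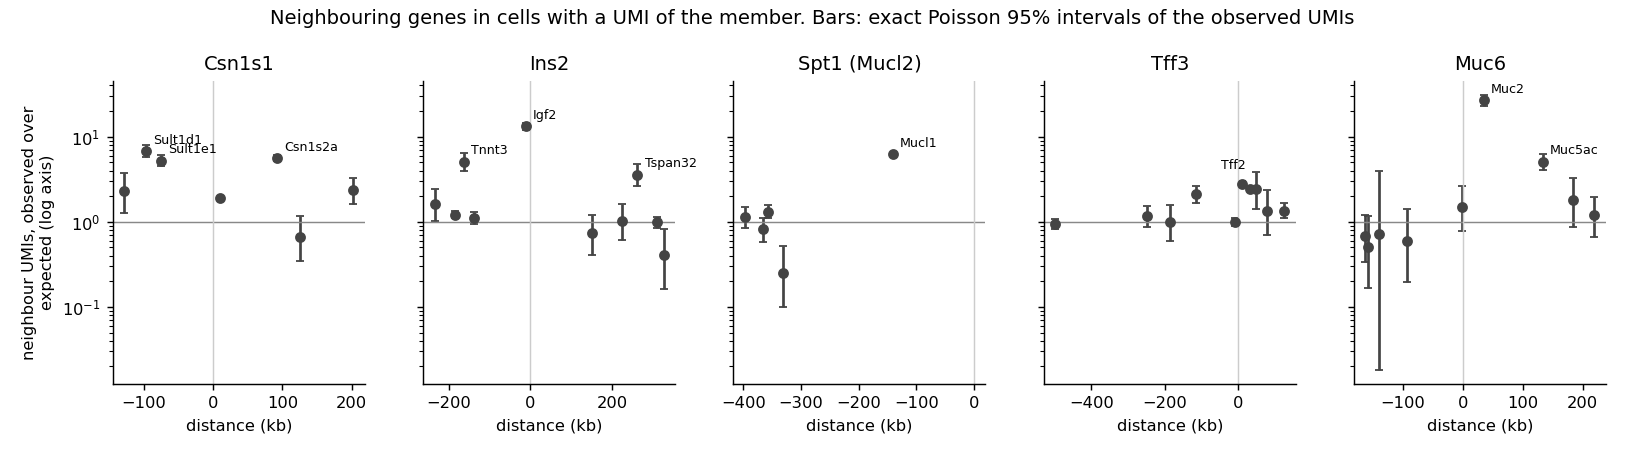
For 5 of the genes the x axis gives the distance of each neighbouring gene with at least 50 UMIs in kb, with its side as the sign, and the y axis (log) its UMIs in member-positive cells over those expected from negative cells of the same clusters. Bars are exact Poisson 95% intervals of the observed UMIs. Muc2 stands at 26.7 beside Muc6 and Igf2 at 13.2 beside Ins2, while Abcg1 beside Tff3 stands at 0.989.

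Ranked over all genes found in at least 10% of the positive cells, the companions of 5 of the members included neighbours. No ratios are given for the companions of Csn2, for the same reason as for its neighbours. Igf2 ranked first for Ins2 and H19, 100513 bases away, second (7.35-fold). Mucl1 ranked first for Spt1 and Muc2 first for Muc6, Tff2 was among the 5 for Tff3, and Sult1d1, Csn1s2a and Sult1e1 held ranks 2 to 4 for Csn1s1 after the keratin gene Krt10 (6.88-fold). Of the 25 companions of these 5 genes, 8 (32%) lay within 200 kb of their member, against 18 of 45969 pairs of a member and an eligible gene (0.0392%), a window chosen after the companions had been seen.

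Over clusters and libraries (22 points from 11 clusters, which share libraries, depth and the clusters' makeup), the genes with the pattern most like that of Csn2 were Mia, Il13 and Ly9 (Pearson r of 0.984, 0.980 and 0.975), ahead of Aire at 0.812. For Ins2 they were 4933431M02Rik, Hand1 and Pebp4 (0.968, 0.965 and 0.961), and for Tff3 Gm35696, Samsn1 and Marc1 (0.969, 0.966 and 0.964). For Csn1s1, Spt1 and Muc6 the highest were Rab3b, Megf11 and Capn11, each at 0.942. Aire was at 0.433 for Csn1s1, 0.709 for Ins2, 0.637 for Spt1, 0.718 for Tff3 and 0.465 for Muc6. These are descriptions, each the highest of many genes.

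Lists of related tissue genes were read in the same contrast of Aire-high over Aire-zero cells, each against the 21.1% of all genes that were more than 2-fold higher in each library. Of 8 further milk genes with at least 50 UMIs, 6 passed that fold, among them Csn1s2a (log2 3.73), Odam (3.47) and Csn3 (1.64), and the median log2 was 2.89. Wap, the whey acidic protein, had -0.72 and 2.16 in the smaller and larger library. Cidea, a lipid droplet protein, went the other way (-1.45). Of 7 islet genes 5 passed (median log2 2.50), among them glucagon (Gcg, 4.40) and somatostatin (Sst, 2.50), while Iapp stood at 0.17 and Mafa at -0.27. Ins1, the other insulin gene, had 17 UMIs in all, against 1064 of Ins2 over both libraries.

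Of 8 salivary genes 5 passed (median log2 1.71), among them Dcpp1 (1.93), Dcpp2 (1.71) and the lactoperoxidase gene Lpo (1.35). Of 10 stomach genes 9 passed (median log2 2.69), among them pepsinogen Pgc (3.38), the mucin Muc5ac (3.02) and the proton pump subunit Atp4a (1.88), and Lipf, at 1.01 over both libraries, did not. Of 10 trefoil and goblet genes 4 passed (median log2 1.25), namely Tff1 (2.02), Tff2 (1.45), Muc2 (2.62) and Zg16 (2.81). The goblet genes Fcgbp (-0.36) and Clca1 (-1.02) had ratios below 0. The median of the goblet list was the lowest of the 5 lists, and the difference between lists was not tested.

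Between the libraries the abundant member differed little and the scarce ones more. Over all kept cells the log2 ratio of the larger over the smaller library (labelled control over labelled radiation, but irradiated over control by file tags and cell numbers) was -0.03 for Csn2 (-0.06 to -0.00), -1.23 for Csn1s1 (-1.49 to -0.98), -0.44 for Ins2 (-0.68 to -0.19), -0.58 for Spt1 (-0.68 to -0.48), -0.59 for Tff3 (-0.80 to -0.39) and 0.58 for Muc6 (-0.41 to 1.61). With both libraries set to the pooled cluster composition the ratio of Csn2 was 0.18, as a mean over cells it was 0.059, and that of Ins2 was 0.041 in cells with under 5000 detected genes, so these directions depend on the setting. Without the highest cell of each library the ratios became -0.03, -1.11, -0.49, -0.60, -0.37 and 0.35. Csn1s1 and Tff3 were more than 1.5-fold lower in the larger library, 2 of the 6 genes, beside 10.8% of all genes, and the median was -0.51 over the 6 genes and -0.06 over all genes. Aire had a log2 ratio of 0.04.

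The share of cells was also read after thinning, and for the scarce genes the intervals of the libraries overlapped, which does not show that the shares were equal. Csn1s1 was found in 1.36% (0.991% to 1.82%) of cells of the smaller library and 0.829% (0.598% to 1.12%) of the larger, Ins2 in 1.27% (0.912% to 1.72%) and 0.770% (0.548% to 1.05%), and Spt1 in 97 and 119 cells (2.44% to 3.65%, and 1.95% to 2.80%). Tff3 was at 2.04% and 2.05%, with 140 UMIs in the highest cell of the smaller library and 35 in that of the larger. Muc6 was at 0.124% and 0.0790%, the opposite direction to its summed level. Before thinning the intervals did not overlap for Csn1s1 (2.05% to 3.17% in the smaller library, 1.18% to 1.87% in the larger). Nor did they for Ins2 (1.64% to 2.66%, and 0.904% to 1.52%). Those of Spt1, Tff3 and Muc6 overlapped before thinning too. In Aire-positive cells the log2 ratios were -0.02 for Csn2, -1.28 for Csn1s1, -0.42 for Ins2, -0.50 for Spt1, -0.60 for Tff3 and 0.22 for Muc6, and Ins2 stood at 0.25 in those with under 5000 detected genes. Csn1s1 and Tff3 again passed 1.5-fold, beside 11.9% of all genes, and Tff3 went to -0.23 without its highest cells.

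By cluster the direction was not the same everywhere. Csn2 had a log2 ratio of 0.46 in C2 (13.0 against 17.9 UMIs per 10000), 0.12 in C3 and -0.20 in C4, and Aire moved alongside with 0.40, 0.19 and -0.07. C2 made up 13.3% of the cells of the smaller library and 9.94% of the larger. Ins2 had -1.19 in C2 (181 against 81 UMIs), 0.92 in C3 (153 against 395) and -1.74 in C4 (158 against 64), and without the highest cells -0.97, 0.87 and -2.38. In C4 Ins2 was found in 10 of 317 and in 3 of 524 cells. Csn1s1 was lower in the larger library in C3 (-1.16, 518 against 314 UMIs) and C4 (-0.995, -1.86 to -0.14), and its range in C2 includes no difference (-0.27, -1.46 to 0.92).

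Spt1 was lower in the larger library in C3 (-0.53) and C4 (-0.85) and not in C2 (0.04, -0.17 to 0.25). Tff3 had -0.65 in C2, which became -0.12 without the highest cell of each library, and ranges that include no difference in C3 (-0.04) and C4 (-0.01). For Muc6 the log2 ratio of 2.60 in C2 rests on 1 cell of 15 UMIs and was -1.61 without the highest cells. Csn1s1 and Spt1 were thus lower in the larger library in both C3 and C4, and without the highest cells their ratios were -1.001 and -0.59 in C3 and -0.64 and -0.57 in C4. Since a handful of cells set these sums, the ranges understate the error between pools of mice.

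**Figure D5:**
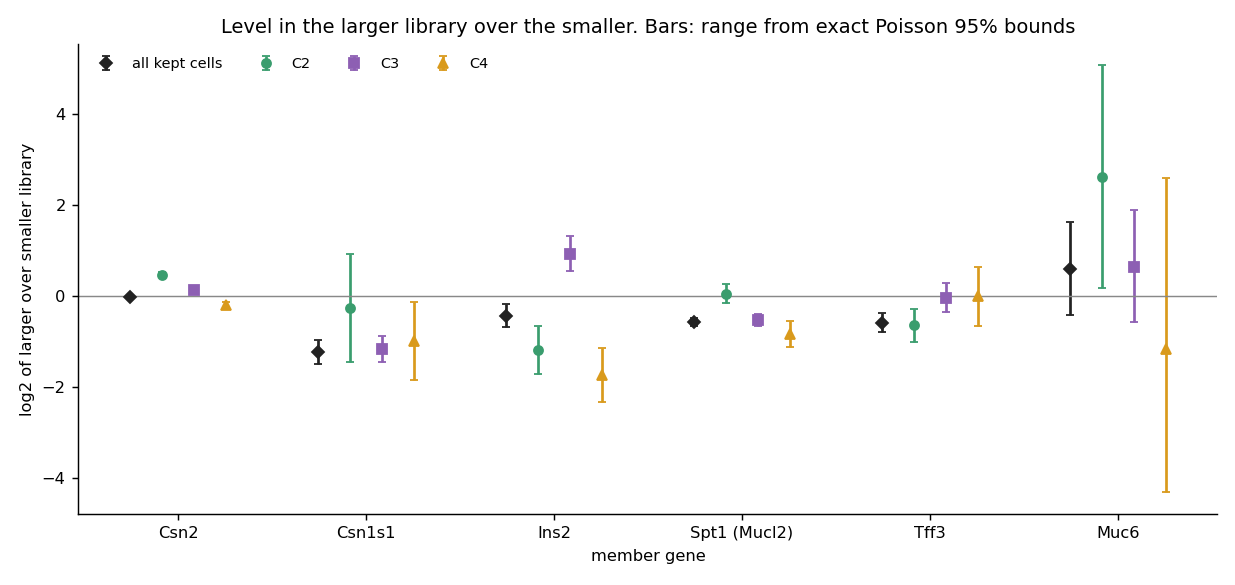
The y axis gives the log2 ratio of the larger over the smaller library for each gene on the x axis, in all kept cells and in C2, C3 and C4. Bars are ranges from exact Poisson 95% bounds, which cover counting error only. Csn2 lies within 0.46 of 0 throughout, and Ins2 lies at 0.92 in C3 but at -1.19 and -1.74 in C2 and C4.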

How the data were processed

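Per the methods of the study and the matrix headers, the authors aligned the droplet reads of 2 pooled libraries and counted UMIs with Cell Ranger (5.0.1 in the headers, 5.1 in the submitters' processing notes), and deposited raw counts per gene and barcode with no normalization. The labels give v2 chemistry and the paper v3. Cells with over 2000 and under 7500 detected genes (genes found in at least 5 barcodes) and under 15% mitochondrial UMIs were kept, as in the study: 3233 of 4937 and 5070 of 7167 barcodes. Depth was 51586327 and 75542631 UMIs in kept cells. No doublet caller was run. Libraries were integrated with Seurat 5.3.0 in R 4.3.3 (2000 anchor features, 20 components, resolution 0.5), with the 6 genes removed from the features.

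Levels are summed UMIs per 10000. Since UMIs count molecules at the 3′ end, levels are not divided by gene length. Log2 ratios add 0.5 UMIs, with ranges from the opposite ends of both exact Poisson intervals. Thinning used numpy 2.4.6 with seed 1. Genes in the annotation were placed with GENCODE M21 (GRCm38), and no gene overlaps a member. Ratios, thinning and expected values were tested on simulated counts. Alternatives were other cell filters, thinning, Aire cut-offs, clusterings and leaving out the highest cell. The named genes were the 6 members, fixed lists of related genes, 5 neighbours on each side, 5 companions (not given for Csn2) and 3 genes of like pattern per member. Members and lists were chosen with earlier results of these data known.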

Additional observations from a re-analysis of the deposited data

Results flagged for a closer look

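For Csn2 and Ins2 the direction between the libraries differed between clusters, with ranges on opposite sides of 0, and this difference was not tested, since there is 1 library per condition. The log2 ratio of the larger over the smaller library was 0.46 in C2, 0.12 in C3 and -0.20 in C4 for Csn2, and -1.19 in C2, 0.92 in C3 and -1.74 in C4 for Ins2. The highest Ins2 cell of the larger library (103 UMIs) lay in C3 and that of the smaller (80 UMIs) in C4.

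Barcodes that the cell filters left out also held the 6 genes, above the limit of 3 counts. They held 5372 UMIs of Csn2, 61 of Csn1s1, 115 of Ins2, 648 of Spt1, 107 of Tff3 and 7 of Muc6. The highest of these barcodes held 168 Csn2 UMIs and 117 Spt1 UMIs, both in the smaller library. Csn2 stood there at 3.67 and 4.43 UMIs per 10000 in the smaller and larger library.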

How the results depend on the processing

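Of 120 alternative values of single members' log2 ratios, 112 kept the sign of the reported value and 69 lay within its 95% range. The exceptions that turned a called direction all concern the libraries. Csn2 over all kept cells went to 0.18 with both libraries set to the pooled cluster composition and to 0.059 as a mean over cells, and Ins2 went to 0.041 over all kept cells and 0.25 in Aire-positive cells with under 5000 detected genes, the cause of which was not tested. The number of members more than 1.5-fold lower in the larger library, 2 as reported, fell to 1 over all kept cells with under 5000 detected genes, with the pooled composition and as a mean over cells, and to 1 in Aire-positive cells with under 5000 detected genes and without the highest cells. The number more than 2-fold higher in Aire-high cells of each library was 4 to 6 in the alternatives. The share of cells with any member, 33.3% in the smaller and 31.7% in the larger library, was 43.6% and 41.7% without thinning and 24.8% and 23.9% at a minimum of 2 UMIs, and 31.2% in the smaller library with under 5000 detected genes. In the other clusterings 4 or 5 members were highest in the cluster made of C3 cells; Tff3 was the exception in each and Muc6 also at resolution 1.0. No paired analysis was possible because each condition has 1 library and the labels carry no replicate numbers. Depth limits Muc6 most, with 74 UMIs in all.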
